A study of Mus musculus with 20 samples.

Results

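The genes for the proteins of the cytosolic ribosome were followed across 3 kinds of mouse liver tumor and control liver. Members were all rows of the count tables whose symbol reads Rpl or Rps with the usual numbers and letters (Rplp0 to Rplp2 and Rpsa included), without the S6 kinases and without rows ending in -ps, the symbols of pseudogenes. The rule found 89 of 50559 genes, 53 of the large subunit (Rpl) and 36 of the small subunit (Rps), and used no measured value. Of these, 86 had at least 1 CPM (counts scaled to a common library size, with factors from the trimmed mean of M values, TMM) in at least 5 libraries and were tested, among 14333 genes. The 3 others were Rpl10l, at 0 counts in all 20 libraries, Rpl39l, with at most 5 counts, and Rpl3l, with at most 43. Despite the exclusion of -ps rows, 5 members (Rps12l1, Rpl32l, Rpl6l, Rps3a2 and Rps3a3) are annotated as processed pseudogenes, and 7 are paralogs that stand beside a parent gene in the list. The remaining 77 were all tested and are called the core members here.

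Each ribosome holds a single copy of almost all of its proteins, so their genes are usually expressed together, and their mRNAs share an oligopyrimidine tract at the 5′ end (TOP mRNAs), through which mTOR signaling sets their translation. MYC is known to raise ribosome production, through RNA polymerase I, assembly factors and the ribosomal protein genes themselves. Ribosomal proteins that are not built into a ribosome, above all Rpl5 and Rpl11, can bind MDM2 and thereby stabilize p53. A few ribosomal proteins have paralogs with restricted or regulated expression, such as Rpl22l1 and the p53 target Rps27l.

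RNA came from 20 female C57BL/6J mice, 6 to 8 weeks old at injection, with 5 libraries in each of 4 groups. Genes were delivered to hepatocytes by hydrodynamic injection of plasmids into the tail vein, with the Sleeping Beauty transposase SB100X for integration, so that only a part of the hepatocytes carried them. All 3 tumor groups carried MYC under the EF1a promoter, together with Aldafermin, an engineered analog of the hormone FGF19 (Aldafermin+MYC), with human FGF19 (FGF19+MYC), or with a CRISPR vector against Trp53 (sgTrp53+MYC). Control livers (Liver) are called non treated in the labels, whereas the study describes them as livers injected with an RFP plasmid. For sgTrp53+MYC the labels' treatment field reads none and the condition comes from the sample titles. These 5 libraries stand in a count table of their own, so that whatever sets the tables apart and whatever sets sgTrp53+MYC apart cannot be told apart.

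Between 18004977 and 44427184 reads per library fell on genes in the first table and between 54042455 and 66354724 in the table of sgTrp53+MYC. Trp53, the gene targeted by the guide, was lower in sgTrp53+MYC tumors (18.7, 79.9, 35.4, 51 and 48.8 CPM) than in every library of the other tumors (90.8 to 176 CPM), and the livers lay between 28.8 and 36.4 CPM. Summed over 5 hepatocyte markers, livers reached 177000 to 220000 CPM and tumors 3160 to 27400 CPM. In bulk RNA, fewer cells of a type and less RNA per cell cannot be told apart. Summed markers of macrophages (54.7 to 296 against 242 to 347 CPM) and endothelium (29.2 to 96.2 against 120 to 180 CPM) were also lower in most or all tumors, but not every marker was. Cd68 of macrophages was higher in all tumors (30.3 to 130 CPM) than in the livers (13.3 to 18.9 CPM). Adgre1 of macrophages (4.48 to 58.1 against 19.4 to 37.1 CPM) and Pecam1 of endothelium (14.3 to 49.8 against 21.4 to 40.5 CPM) overlapped. Csf1r of macrophages overlapped only through Aldafermin+MYC replicate 3 (106 CPM, against 73.8 to 106 CPM in livers). Clec4f of macrophages was lower in all tumors (at most 47.2 against 136 to 189 CPM). Summed markers of stellate cells and fibroblasts were higher in most tumors (104 to 1540 against 54.2 to 115 CPM), through Col1a1 and Col3a1. The other markers of that list lay on both sides of the livers: Pdgfrb at 4.85 to 52.7 against 15.4 to 18.8 CPM and Des at 2.58 to 18.8 against 4.51 to 8.57 CPM. T and B cell markers summed to at most 5.33 CPM in any library and the testis list to at most 1.1 CPM, with 0.272 to 1.1 CPM in sgTrp53+MYC and at most 0.269 CPM elsewhere, mostly through Ddx4, and Tnp1 at 0 counts in all. The muscle list summed to 16.7 to 549 CPM in sgTrp53+MYC tumors and to at most 0.461 CPM in other libraries, through Ckm, with Myh4 at 0 counts in all tumors. The biliary list summed to 294 CPM in sgTrp53+MYC replicate 2 (Krt19 191, Krt7 80.9 and Epcam 22.2 CPM) and to at most 11.5 CPM in every other library. The part of these markers in the results below was not tested.

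Sequences of a few members show how closely some of them resemble their parents. Rps12l1 (chromosome 7, 55663764 to 55664162, + strand, GRCm39), a single exon annotated as a processed pseudogene, matches the coding sequence of Rps12 (chromosome 10, 23661081 to 23663173, - strand) at all 399 bases. A read inside it cannot be assigned to either gene by its letters alone. The first 90 coding bases are shown for this pair. For Rpl32l (chromosome 10, 20084236 to 20084634, + strand), 97.5% identical to Rpl32 (chromosome 6, 115782442 to 115785785, - strand), and for Rps3a2 (chromosome 14, 88360453 to 88361244, - strand), 99.5% identical to Rps3a1 (chromosome 3, 86045244 to 86050009, - strand), the 90 bases with the most differences are shown, with differing bases in capitals. For the paralog Rpl22l1 (chromosome 3, 28859585 to 28861573, + strand) and Rpl22 (chromosome 4, 152410150 to 152418542, + strand), both with 4 exons and 73.7% identical over 323 aligned coding bases, the same kind of window holds 26 differences.
Rps12l1: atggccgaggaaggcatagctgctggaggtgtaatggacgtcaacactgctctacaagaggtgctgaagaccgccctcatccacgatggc
Rps12: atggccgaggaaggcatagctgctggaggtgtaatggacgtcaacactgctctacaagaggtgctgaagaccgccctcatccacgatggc
Rpl32l: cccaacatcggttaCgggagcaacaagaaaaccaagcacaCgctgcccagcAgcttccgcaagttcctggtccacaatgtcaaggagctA
Rpl32: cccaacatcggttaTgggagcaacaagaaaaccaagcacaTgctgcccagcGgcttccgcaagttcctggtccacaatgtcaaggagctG
Rps3a2: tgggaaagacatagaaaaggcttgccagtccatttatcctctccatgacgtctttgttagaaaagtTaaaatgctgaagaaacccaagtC
Rps3a1: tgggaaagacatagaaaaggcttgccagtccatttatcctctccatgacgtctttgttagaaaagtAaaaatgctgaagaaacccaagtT
Rpl22l1: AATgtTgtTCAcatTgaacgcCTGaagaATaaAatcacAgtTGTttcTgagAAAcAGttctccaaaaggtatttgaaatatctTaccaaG
Rpl22: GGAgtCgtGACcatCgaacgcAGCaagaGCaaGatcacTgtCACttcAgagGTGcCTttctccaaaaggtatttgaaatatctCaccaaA
The copies are thus nearly the same as their parents at the length of a read, whereas the paralogs differ every few bases.

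In tumors a far larger share of all gene counts fell on ribosomal protein genes than in liver. The share was 8.65%, 7.3%, 7.51%, 6.48% and 12.2% in Aldafermin+MYC replicates 1 to 5, 17.8%, 6.94%, 7.08%, 6.78% and 6.47% in FGF19+MYC, 14.9%, 10.3%, 6.15%, 7.18% and 6.19% in sgTrp53+MYC, and 1.35%, 1.33%, 1.28%, 1.91% and 2.03% in Liver. Every tumor lay above every liver, and the lowest tumor held 3.03 times the share of the highest liver. The group means were 8.43% ± 2.25 (SD, n = 5) in Aldafermin+MYC, 9.01% ± 4.92 (SD, n = 5) in FGF19+MYC, 8.94% ± 3.74 (SD, n = 5) in sgTrp53+MYC and 1.58% ± 0.359 (SD, n = 5) in Liver. The 15 tumors spread by 2.89-fold among themselves, with a high library in each group (Aldafermin+MYC replicate 5, FGF19+MYC replicate 1 and sgTrp53+MYC replicate 1). Without these 3 libraries, a comparison added after the data were seen, the tumor means were 7.48%, 6.82% and 7.46%. The most abundant transcripts took a larger share in liver: the 20 genes with the highest mean counts, among them Alb but also the members Rplp0 and Rpsa, took 22.6% ± 1.36 (SD, n = 5) of liver counts and 8.29% to 12.9% of tumor counts. With these 20 genes left out of both sums, the mean of the tumors was 4.71 times that of the livers, against 5.57 times with them. Large and small subunit genes kept nearly the same proportion, with 1.46 ± 0.0356, 1.46 ± 0.0733, 1.42 ± 0.0709 and 1.47 ± 0.0612 (SD, n = 5) counts on Rpl genes per count on Rps genes in the 4 groups in the same order. The lowest values, 1.3 and 1.33, were those of sgTrp53+MYC replicate 1 and FGF19+MYC replicate 1, where the Rps genes had gained more.

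**Figure D1:**
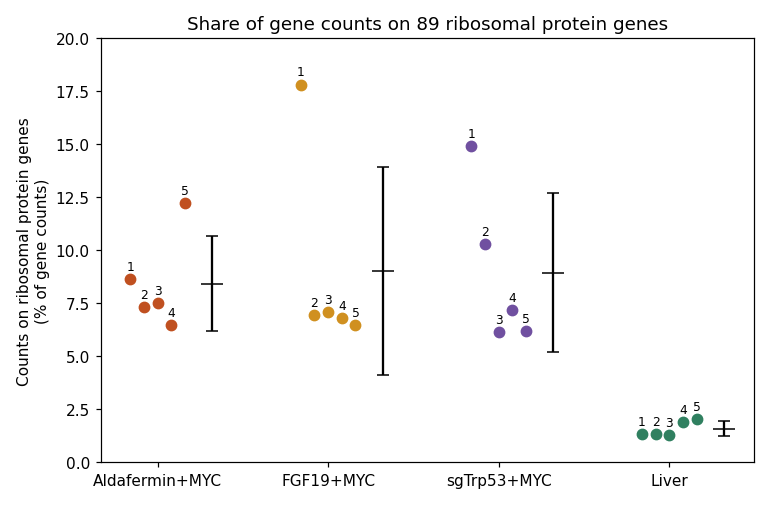
Share of gene counts on the 89 ribosomal protein genes (percent) in each library, with the replicate number above each point and the mean and SD of the 5 libraries at the right of each group. The 5 livers lie between 1.28% and 2.03% and the 15 tumors between 6.15% and 17.8%, with FGF19+MYC replicate 1 at the top.

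Per gene, on counts normalized by the TMM method, nearly all members were higher in tumors than in liver. In Aldafermin+MYC and FGF19+MYC tumors against Liver, 84 of the 86 tested members were higher and 0 lower by edgeR's quasi-likelihood test at an adjusted p under 0.05, whereas 39.2% of all genes tested were higher and 34.5% lower. The median log2 fold change of the members was 1.64 and that of all genes 0.10. In sgTrp53+MYC tumors against Liver, 78 of 86 were higher and 0 lower, with a median of 1.53 for the members and 0.07 for all genes, of which 36.9% were higher and 33% lower. The comparisons share the 5 livers. Both subunits moved alike: against Liver, the median was 1.63 for 50 large and 1.68 for 36 small subunit members in Aldafermin+MYC and FGF19+MYC, and 1.52 and 1.56 in sgTrp53+MYC. The lowest tumor exceeded the highest liver for 80 members in the first comparison, where this held for 28.5% of all genes, and for 66 in the second, where it held for 28.8%. Without the 3 high libraries, 84 and 78 members were still higher, with medians of 1.21 and 1.19, beside 5814 and 5658 of all 14148 genes. Without sgTrp53+MYC replicate 1 alone, 64 members were higher in the second comparison, beside 5279 of all 14282 genes. With a correction of each library for coding length and GC content, 83 and 78 members were higher, with medians of 1.24 and 1.33. Of all 14333 genes, 5562 and 5345 were higher with it.

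**Figure D2:**
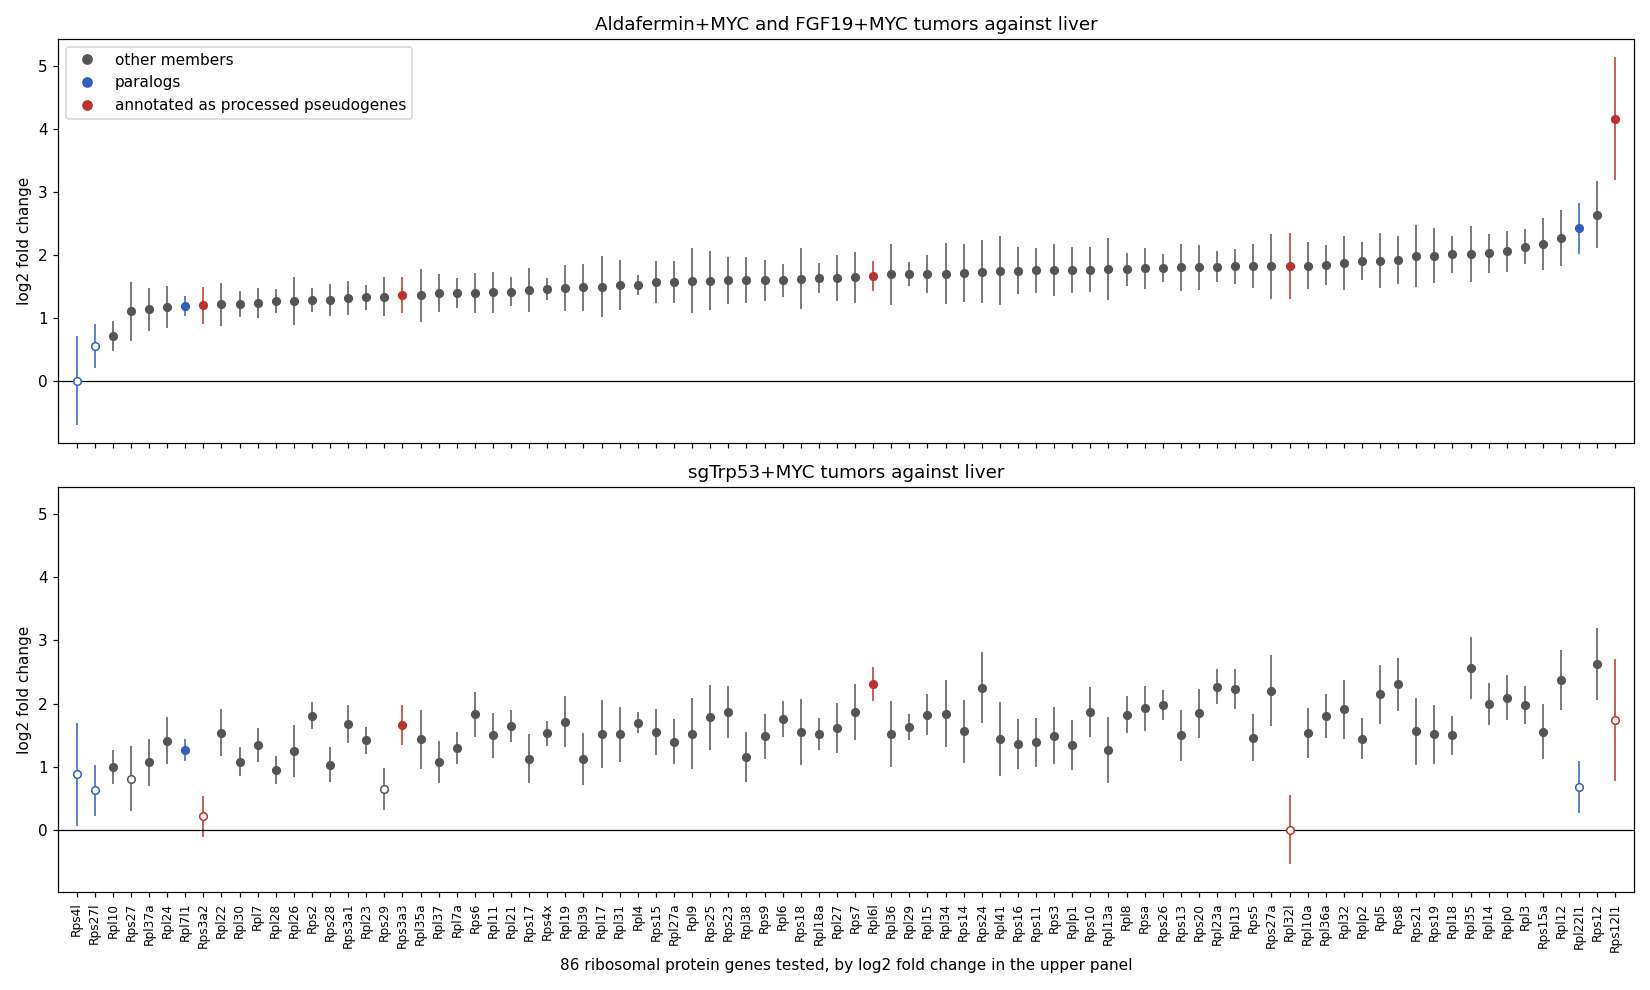
Log2 fold change against Liver (vertical axis, points, with bars of 1 SE) of the 86 tested members, in the order of the upper panel, for Aldafermin+MYC and FGF19+MYC tumors above and sgTrp53+MYC tumors below. Filled points passed an adjusted p of 0.05; most members lie between 1 and 2.5 in both panels, and the points that are open or far from the rest belong mostly to paralogs (blue) and annotated pseudogenes (red).

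The core members moved by similar amounts. In Aldafermin+MYC and FGF19+MYC against Liver the lower quartile was 2.67-fold, the median 3.13-fold and the upper quartile 3.52-fold over 77 genes, and in sgTrp53+MYC the same values were 2.66-fold, 2.91-fold and 3.59-fold. The stalk of the large subunit, which recruits the GTPase translation factors, is built from Rplp0, Rplp1 and Rplp2. Rplp0 (liver mean 751 ± 191 CPM, SD, n = 5) rose by 2.06 ± 0.32 (log2 fold change, SE) in Aldafermin+MYC and FGF19+MYC and by 2.10 ± 0.35 in sgTrp53+MYC (edgeR adjusted p = 1.1e-05 and 2.7e-05). Its lowest tumor held 1870 CPM and its highest liver 996 CPM, so that the groups did not overlap. Rplp1 rose by 1.77 and 1.35 and Rplp2 by 1.91 and 1.44 in these comparisons, on the log2 scale. Of the proteins that bind MDM2, Rpl5 was at 1330, 1170, 1080, 910 and 2700 CPM in Aldafermin+MYC, 4370, 968, 1140, 1160 and 918 CPM in FGF19+MYC, 3950, 1730, 1020, 1330 and 1180 CPM in sgTrp53+MYC and 341, 348, 340, 443 and 610 CPM in Liver. Every tumor exceeded every liver, and Rpl5 rose by 1.91 ± 0.43 and 2.15 ± 0.47 (log2 fold change, SE; edgeR adjusted p = 0.00052 and 0.00046). Rpl11 rose by 1.41 ± 0.32 and 1.5 ± 0.36 and Rpl23, another MDM2 binding protein, by 1.33 ± 0.20 and 1.42 ± 0.22, in both cases with adjusted p of at most 0.00099 by edgeR. In the small subunit, Rps6, the substrate of the S6 kinases, rose by 1.40 and 1.83, Rps19, the gene most often mutated in Diamond-Blackfan anemia, by 1.99 and 1.51, Rpsa, which also serves as a laminin receptor, by 1.79 and 1.93, and Rps3, which lines the mRNA entry channel, by 1.76 and 1.49 (log2 fold changes, edgeR adjusted p of at most 0.0066).

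At the upper end stood Rps12, a small subunit protein, with 855, 711, 904, 617 and 1890 CPM in Aldafermin+MYC, 3960, 738, 733, 700 and 726 CPM in FGF19+MYC, 2770, 1190, 499, 748 and 574 CPM in sgTrp53+MYC and 146, 150, 120, 238 and 283 CPM in Liver. All tumors were above all livers, at log2 fold changes of 2.64 ± 0.54 and 2.63 ± 0.57 (SE; edgeR adjusted p = 0.00019 and 0.00043). In sgTrp53+MYC it was followed by Rpl35 (2.56 ± 0.49, edgeR adjusted p = 0.00012) and Rpl12 (2.38 ± 0.47, edgeR adjusted p = 0.00018), both of the large subunit. In Aldafermin+MYC and FGF19+MYC, Rps12l1 (4.16 ± 0.97, edgeR adjusted p = 0.00075) and Rpl22l1 (2.42 ± 0.41, edgeR adjusted p = 2.6e-05) stood beside Rps12. Rps12l1, the copy identical to Rps12, was at 0.11 to 0.558 CPM in Liver and at 31 CPM in Aldafermin+MYC replicate 5 alone, against 1.75 to 2.75 CPM in the 4 others of that group. Rps12l1 passed the filter of 1 CPM in at least 5 libraries only through tumors, where it is higher. Its test against Liver is therefore not independent of the filter, and its fold change rests on liver values near the floor.
At the lower end among the members that passed were Rpl10, a large subunit protein joined late in assembly, with 0.72 ± 0.24 and 1.00 ± 0.27 (log2 fold change, SE; edgeR adjusted p = 0.01 and 0.0027), Rps27 with 1.11 ± 0.47 (edgeR adjusted p = 0.039) and Rpl37a with 1.14 ± 0.34 (edgeR adjusted p = 0.0052) in Aldafermin+MYC and FGF19+MYC, and Rpl28 with 0.95 ± 0.21 and Rps28 with 1.04 ± 0.28 in sgTrp53+MYC (edgeR adjusted p = 0.00062 and 0.0026). The call of Rps27 was lost without Aldafermin+MYC replicate 5, FGF19+MYC replicate 1 or any of Liver replicates 1 to 4. Without FGF19+MYC replicate 1 its log2 fold change was 0.65 (edgeR adjusted p = 0.093), and with the correction for length and GC content 0.35 (edgeR adjusted p = 0.2). In sgTrp53+MYC against Liver Rps27 had 0.81 ± 0.52 and did not pass (edgeR adjusted p = 0.17), nor did Rps29 with 0.65 ± 0.33 (edgeR adjusted p = 0.086). Rps29 is named because it was 1 of the only 2 core members that missed the threshold there. The others that missed it were 3 paralogs (Rpl22l1, Rps27l and Rps4l) and 3 annotated pseudogenes (Rpl32l, Rps12l1 and Rps3a2). In Aldafermin+MYC and FGF19+MYC only the paralogs Rps27l, with 0.56 ± 0.35, and Rps4l, with 0.01 ± 0.70 (log2 fold change, SE; edgeR adjusted p = 0.16 and 0.99), missed it.

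Genes related to the members, outside the symbol rule, moved in the same direction with different sizes. Fau encodes a small subunit protein fused to a ubiquitin-like protein, Rack1 is a scaffold on the small subunit and Rpl36al a paralog of Rpl36a. Against Liver, Rack1 rose by 1.85 ± 0.35 in Aldafermin+MYC and FGF19+MYC and by 1.70 ± 0.38 in sgTrp53+MYC (edgeR adjusted p = 0.00011 and 0.00062), much like the core members. Fau had 0.94 and 0.93 and Rpl36al 0.86 and 0.50 (log2 fold changes), and both passed only in the first comparison. Of 15 other TOP mRNAs, mostly of translation factors, 10 were higher and 0 lower in Aldafermin+MYC and FGF19+MYC (median log2 fold change 0.98) and 12 higher and 0 lower in sgTrp53+MYC (median 1.32), beside 39.2% and 36.9% of all genes higher and 34.5% and 33% lower in these comparisons. Their members differed widely: Npm1, a nucleolar chaperone, rose by 3.48 and 3.75, whereas the elongation factors Eef1a1 (0.32 and 0.43) and Eef2 (0.04 and 0.16) and Tpt1 (0.15 and 0.51) did not pass. All 17 genes of ribosome production, such as nucleolar processing factors, were higher in both comparisons, with medians of 2.69 and 2.62. Nop56, of the box C/D complexes that guide rRNA methylation, rose by 3.83 and 3.97 and Ncl, nucleolin, by 3.08 and 3.22. Of 78 mitochondrial ribosomal protein genes, 58 and 55 were higher and 0 lower, with medians of 0.94 and 0.83. The cytosolic members thus lay, by their medians, above the mitochondrial ones and below the ribosome production genes in each comparison, as a description of these lists.

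No member passed the test between Aldafermin+MYC and FGF19+MYC tumors. By edgeR's quasi-likelihood test 0 of 86 members passed in either direction, as did 0% of all genes tested, and 0 members had an unadjusted p under 0.05. DESeq2 and edgeR's likelihood ratio test also called 0 members, though over all genes they called 73 higher and 23 lower, and 52 higher and 7 lower. The median log2 fold change of the members was -0.10, that of all genes 0.02, and 13 of 86 members lay above 0. That lean followed single libraries: the median was 0.39 without FGF19+MYC replicate 1 and -0.40 without Aldafermin+MYC replicate 5. For Rplp0 the levels were 3490, 2770, 2680, 2050 and 4650 CPM in Aldafermin+MYC and 6340, 2470, 2380, 2280 and 2210 CPM in FGF19+MYC, with a log2 fold change of -0.01 ± 0.34 (SE; edgeR adjusted p = 1). The other paralogs, parents and members named above for their roles had log2 fold changes between those of Rps4l (-0.57 ± 0.81) and Rps4x (0.06 ± 0.19). Differences smaller than the spread within the groups were not detectable here.

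Between the sgTrp53+MYC tumors and the other tumors few members passed the test, a smaller share than of all genes. Of 86 members, 4 were higher in Aldafermin+MYC and FGF19+MYC than in sgTrp53+MYC and 2 lower by edgeR's quasi-likelihood test, where 11.6% of all genes tested were higher and 12.1% lower. The median log2 fold change was 0.01 for the members and -0.02 for all genes. The higher ones were Rps12l1 (2.42 ± 0.83, edgeR adjusted p = 0.041), Rpl32l (1.82 ± 0.51, edgeR adjusted p = 0.014), Rpl22l1 (1.74 ± 0.39, edgeR adjusted p = 0.0037) and Rps3a2 (0.99 ± 0.29, edgeR adjusted p = 0.018), and the lower ones Rpl6l (-0.65 ± 0.22, edgeR adjusted p = 0.036) and Rps2 (-0.52 ± 0.18, edgeR adjusted p = 0.038), all as log2 fold changes with SE. Of these 6 members 4 are annotated as processed pseudogenes, and of the 77 core members only Rps2 passed. Rps12l1 and Rpl32l passed the filter on low counts only with the Aldafermin+MYC and FGF19+MYC tumors, where they are higher. In sgTrp53+MYC they reached at most 2.9 and 2.82 CPM, so their tests are not independent of the filter. Rps2, a protein of the mRNA entry site, was at 2020, 1480, 1350, 1260 and 1850 CPM in Aldafermin+MYC, 2300, 1360, 1530, 1440 and 1230 CPM in FGF19+MYC and 2580, 2740, 1690, 2320 and 2020 CPM in sgTrp53+MYC, so that the groups overlapped. Several of these calls lay close to the threshold: leaving out single libraries gave between 2 and 7 higher and between 0 and 4 lower members, with 0 lower without Aldafermin+MYC replicate 2, 3 or 4, FGF19+MYC replicate 2, 3, 4 or 5, or sgTrp53+MYC replicate 1 or 2, 4 lower without FGF19+MYC replicate 1, 7 higher without sgTrp53+MYC replicate 1 and 2 higher without sgTrp53+MYC replicate 3 or 5. Without the 3 high libraries 6 were higher and 6 lower, beside 1880 higher and 2627 lower of all 14148 genes tested in that setting. The call of Rps12l1 was lost without Aldafermin+MYC replicate 5, FGF19+MYC replicate 1 or any of sgTrp53+MYC replicates 2 to 5, and that of Rps3a2 without sgTrp53+MYC replicate 3 or 5. With the correction for length and GC content 5 were higher and 9 lower, including Rpl22 at -0.56 ± 0.17 (edgeR adjusted p = 0.018). Over all 14333 genes this correction gave 1601 higher and 2155 lower. Within groups the members spread more than all genes. Their median SD of log2 CPM was 0.45 against 0.40 in Aldafermin+MYC, 0.73 against 0.32 in FGF19+MYC and 0.72 against 0.45 in sgTrp53+MYC. The part of this spread in the smaller share of members called was not tested.

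Some of the annotated pseudogenes among the members had other values than their parents in this comparison. Rps12l1 and Rpl32l had log2 fold changes of 2.42 and 1.82, whereas their parents Rps12 and Rpl32 had 0.01 and -0.04. Rps3a2 had 0.99 and its parent Rps3a1 -0.35. Rps3a3 had -0.30, close to the value of the same parent Rps3a1. Rpl6l had -0.65. Set against the members' median, Rpl6l stood at -0.66 and its parent Rpl6 at -0.17, in the same direction. The tested -ps rows, 129 pseudogene symbols outside the rule, had a median of 1.07, with 62 higher and 6 lower, although the members' own median was 0.01. Of all genes tested, 11.6% were higher and 12.1% lower. Only -ps rows past the filter on low counts were tested. Rows that passed it only through tumors where they are high were not set apart, so counts of -ps rows here and below are not independent of the filter. The -ps rows took 3.21 ± 0.162 counts per 100 counts on members in Aldafermin+MYC, 3.13 ± 0.188 in FGF19+MYC, 2.96 ± 0.15 in Liver and 2.63 ± 0.154 in sgTrp53+MYC (SD, n = 5). Beside this, the deposited tables differ in how reads were resolved: reads that met more than 1 gene made up 11.1% to 14.6% of all reads in the tables, summary lines included, in sgTrp53+MYC and 3.03% to 6.3% in the other groups, and reads not aligned 5.34% to 6.82% against 15.3% to 34%. The part of these differences in the calls of the copies was not tested. Against Liver, within the first table alone, the -ps rows had a median log2 fold change of 1.67 with 124 of 129 higher, close to the members' 1.64. Of all genes tested, 39.2% were higher and 34.5% lower there. In sgTrp53+MYC against Liver, across the tables, the median of the -ps rows was 0.61 with 43 higher and 5 lower, below the members' 1.53. In that comparison 36.9% of all genes were higher and 33% lower.

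**Figure D3:**
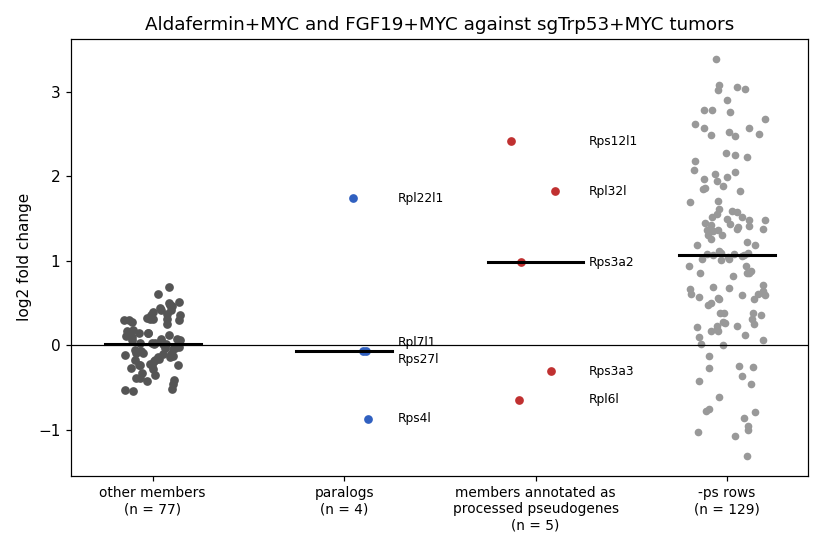
Log2 fold change of Aldafermin+MYC and FGF19+MYC tumors against sgTrp53+MYC tumors (vertical axis) for the 77 core members, the 4 tested paralogs, the 5 annotated pseudogenes among the members and the 129 tested -ps rows, with medians as bars. The core members cluster around 0, the -ps rows around 1.07, and Rpl22l1 stands apart from the other paralogs.

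Rpl22l1 was higher in Aldafermin+MYC and FGF19+MYC tumors than in sgTrp53+MYC tumors, a call that held without any 1 library. It is a paralog of Rpl22, a large subunit protein that is dispensable for growth of most cells and that is known to repress Rpl22l1. Rpl22l1 was at 133, 146, 135, 121 and 345 CPM in Aldafermin+MYC, 404, 122, 157, 143 and 119 CPM in FGF19+MYC, 117, 47.2, 39.6, 38.1 and 31.5 CPM in sgTrp53+MYC and 25.4, 24.8, 25.5, 37.8 and 56.7 CPM in Liver. Each Aldafermin+MYC and FGF19+MYC tumor exceeded each sgTrp53+MYC tumor and each liver. In the comparison of tumor types Rpl22l1 was the only 1 of the 86 tested members with no overlap. Of all 14333 genes tested, 470 were higher and 347 lower there without overlap. The sgTrp53+MYC tumors overlapped with the livers (log2 fold change 0.68 ± 0.42, SE; edgeR adjusted p = 0.15). Its parent Rpl22 was at 270 to 591, 254 to 920, 305 to 929 and 140 to 202 CPM in the groups in the same order, with a log2 fold change of -0.32 ± 0.32 between the tumor types (SE; edgeR adjusted p = 0.5).
Annotated genes on the opposite strand (Gm32950 and Gm33051) overlap exons of Rpl22l1, and whether reads were counted by strand is not given in the sources used here.
Within each library, Rpl22l1 had 47 ± 6.59 counts per 100 counts on Rpl22 in Aldafermin+MYC, 48.6 ± 5.53 in FGF19+MYC, 11.3 ± 1.47 in sgTrp53+MYC and 20.3 ± 4.65 in Liver (SD, n = 5). The log2 ratio of both counts was 2.08 higher in Aldafermin+MYC and FGF19+MYC than in sgTrp53+MYC, 4.24-fold, and 1.25 higher than in Liver, 2.38-fold (permutation of samples, exact and two-sided as in all tests of ratios here: p = 0.000333 each, the minimum over 3003 splits, adjusted p = 0.00333 over 20 tests of 5 pairs in 4 comparisons). In sgTrp53+MYC the ratio was lower than in Liver by 0.83 on the log2 scale (by exact permutation over samples, p = 0.00794, the minimum over 252 splits, adjusted p = 0.0397). Between Aldafermin+MYC and FGF19+MYC it differed by -0.05 (by exact permutation over samples, p = 0.722, adjusted p = 0.794). The groups were thus ordered sgTrp53+MYC, Liver, and then Aldafermin+MYC and FGF19+MYC with overlapping values. The place of sgTrp53+MYC rests on comparisons across the 2 count tables, whereas the other comparisons of the ratio lie within the first. Reads that met more than 1 gene made up 11.1% to 14.6% in sgTrp53+MYC and 3.03% to 6.3% elsewhere. Rpl22, unlike Rpl22l1, has no annotated exon overlap on the opposite strand. The part of this in the ratio was not tested. The high libraries stayed within or near their groups: the log2 ratio in Aldafermin+MYC replicate 5 was -0.78, in FGF19+MYC replicate 1 -1.19 and in sgTrp53+MYC replicate 1 -2.99, and without them the difference between tumor types was 2.10 (by exact permutation, adjusted p = 0.013). Per kilobase of coding sequence, Rpl22l1 held 477, 513, 148 and 92.3 CPM and Rpl22 932, 1040, 1230 and 422 CPM (means in Aldafermin+MYC, FGF19+MYC, sgTrp53+MYC and Liver), so that the paralog stayed below its parent in every group.

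The other paralogs followed different courses. Rps27l, the p53 target, was at 134 to 325 CPM in Aldafermin+MYC, 130 to 401 in FGF19+MYC, 110 to 454 in sgTrp53+MYC and 93.3 to 202 in Liver, with overlap between all groups. Its log2 fold change between the tumor types was -0.07 ± 0.34 (SE; edgeR adjusted p = 0.91). Its ratio to Rps27 was 0.39 lower on the log2 scale in Aldafermin+MYC and FGF19+MYC than in Liver (by exact permutation over samples, p = 0.012, adjusted p = 0.04), a call that was lost without Aldafermin+MYC replicate 4 or 5, FGF19+MYC replicate 2, 3 or 5, or Liver replicate 1, 2, 3 or 5, at differences between -0.45 and -0.30. Against sgTrp53+MYC the ratio was lower by 0.31 (by exact permutation over samples, p = 0.0939, adjusted p = 0.235).
Rpl7l1, a paralog of Rpl7 that acts in assembly of the large subunit, rose with its parent, at log2 fold changes of 1.20 ± 0.16 and 1.26 ± 0.17 against Liver (SE; edgeR adjusted p = 1.2e-06 and 2.8e-06). Its count per 100 counts on Rpl7 was 14.7 ± 1.56, 16 ± 3.72, 14.4 ± 2.03 and 15.2 ± 2.24 (SD, n = 5) in Aldafermin+MYC, FGF19+MYC, sgTrp53+MYC and Liver. The lowest value of all, 9.39, belonged to FGF19+MYC replicate 1.
Rps4l, a gene with a single coding exon that resembles Rps4x, had the largest SD of log2 CPM of all tested members in sgTrp53+MYC (2.26) and the second largest, after Rps12l1, in Aldafermin+MYC (1.45). It was at 46.2, 6.8, 44.5, 14.2 and 5.53 CPM in Aldafermin+MYC, 53.4, 28.1, 43, 19.5 and 30.5 CPM in FGF19+MYC, 10.5, 40.2, 5.03, 5.31 and 200 CPM in sgTrp53+MYC and 17.6, 32.2, 24.6, 40 and 27.1 CPM in Liver. In sgTrp53+MYC replicate 5 stood far above the others, and the groups overlapped. Rps4x lay between 886 and 1680 CPM in all tumors. The ratio of Rps4l to Rps4x was lower by 1.70 in Aldafermin+MYC and FGF19+MYC than in Liver on the log2 scale (by exact permutation over samples, p = 0.012, adjusted p = 0.04), a call that was lost without Aldafermin+MYC replicate 4, FGF19+MYC replicate 4 or any 1 of the livers.
Of the paralogs of restricted expression, Rpl10l and Rpl39l were at or near 0 counts. Rpl3l, a form of Rpl3 known from striated muscle, had 4, 43, 9, 4 and 3 counts in sgTrp53+MYC replicates 1 to 5, at most 5 counts in any Aldafermin+MYC or FGF19+MYC library and 0 in all livers. Its ratio to Rpl3 passed the test in Aldafermin+MYC and FGF19+MYC against Liver (adjusted p = 0.00444 by the exact test). With counts at or near 0 on both sides, that ratio is set by the pseudocount of 2 and the count on Rpl3, so no difference in Rpl3l is read from it. Ckm, a muscle marker, was at 271 ± 236 CPM (SD, n = 5) in the same sgTrp53+MYC tumors. The other markers of the muscle list were near or at 0 there, Acta1 at 0.0231 to 0.198 CPM and Myh4 at 0. The part of muscle RNA was not tested.

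**Figure D4:**
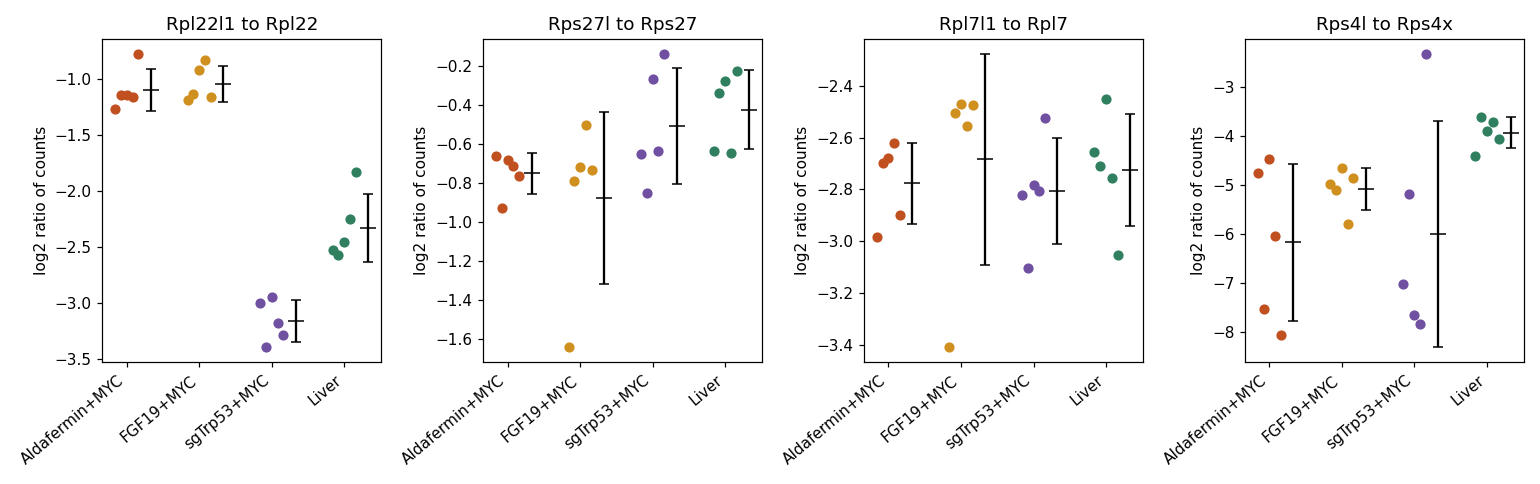
Log2 ratio of the counts on a paralog to those on its parent gene (vertical axis, own scale in each panel) in each library, with the mean and SD of the 5 libraries at the right of each group. For Rpl22l1 the sgTrp53+MYC tumors lie between -3.40 and -2.95, the livers between -2.57 and -1.83 and the other tumors between -1.27 and -0.78, whereas the groups overlap for Rpl7l1.

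The 3 libraries with a high share raised nearly every member together, and some other libraries did so to a smaller extent, as given below. The 3 were picked by that share, which is a sum over the members. Higher values of the members in them follow in part from this choice. Against the median of the other 4 libraries of its group, FGF19+MYC replicate 1 was higher for 86 of 86 members with a median log2 difference of 1.61, sgTrp53+MYC replicate 1 for 85 with 1.45 and Aldafermin+MYC replicate 5 for 85 with 0.93. Over all genes tested the medians were -0.10, -0.06 and -0.01. The same members stood out in all 3: over the 81 members without the annotated pseudogenes, Spearman's rho between the differences of the libraries was 0.94, 0.87 and 0.90, as a description of genes that share libraries and their depth. FGF19+MYC replicate 1 had the fewest gene counts of all libraries (18004977) and the most reads not aligned (34%), and Aldafermin+MYC replicate 5 the highest sum of erythroid markers (539 CPM), and the part of these in the result was not tested. The 49 members with a coding length under 500 bases had medians of 1.73, 1.56 and 1.00 in the 3 libraries and the 14 of at least 750 bases 1.15, 0.98 and 0.73, and rho with coding length was -0.37, -0.38 and -0.28 over these 81 members.
Genes outside the list followed length in the same libraries. With a coding length under 300 bases, 235 other genes had medians of 0.69, 0.99 and 0.64, and with 3000 bases or more, 1662 genes had -0.55, -0.83 and -0.76. From 300 to under 500 bases the other genes reached 0.49, 0.80 and 0.55. The members thus exceeded other genes of like length in each of these libraries, and the part of length in their rise was not tested beyond the correction given above. The 15 other TOP mRNAs had medians of 0.71, 0.61 and 0.55, the mitochondrial ribosomal protein genes 0.65, 0.86 and 0.65 and the ribosome production genes 0.00, -0.06 and 0.09. Between libraries of 1 group the members spread more than other genes: the median SD of log2 CPM was 0.45, 0.73, 0.72 and 0.37 for members and 0.40, 0.32, 0.45 and 0.25 for all genes in Aldafermin+MYC, FGF19+MYC, sgTrp53+MYC and Liver. Joint shifts were thus not particular to the 3 libraries. By the same difference, 86 members lay above 0 in sgTrp53+MYC replicate 2 (median 0.70). In Liver replicates 4 and 5, 85 and 82 members did (medians 0.49 and 0.59). In sgTrp53+MYC replicate 3, 0 members did (median -0.64). Over all genes tested the medians in these libraries lay between -0.01 and 0.01. By the running numbers in the labels' sample names, FGF19+MYC replicate 1 stands apart from the others of its group. So do sgTrp53+MYC replicates 1 and 2 and Liver replicates 4 and 5, whereas Aldafermin+MYC replicate 5 stands next to replicate 4. What these numbers mean is not given, and their part in the shifts was not tested.

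**Figure D5:**
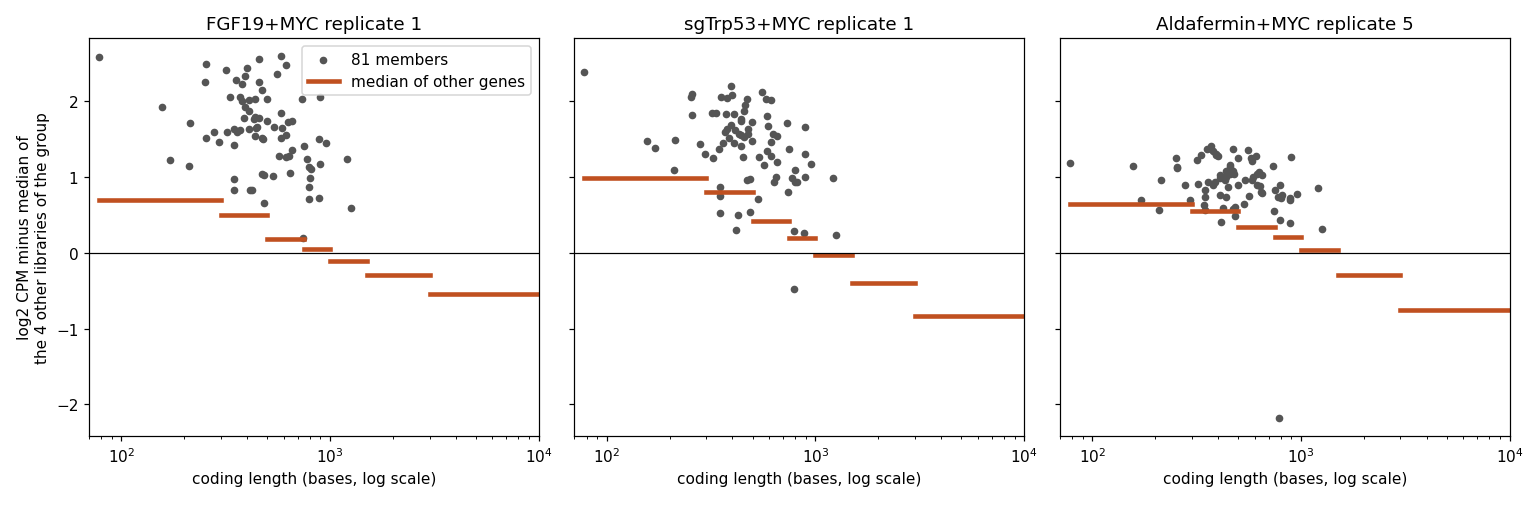
Difference in log2 CPM between a library and the median of the 4 others of its group (vertical axis) against coding length in bases (log axis) for 81 members (points), with the median of all other tested genes in classes of coding length as bars. In each of the 3 libraries the bars fall with length and most points lie above the bar of their class.

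Short motifs were counted in the promoters of the members and of all genes. RefSeq promoters of build GRCm38.p6, from 250 bases before to 50 after the start of a gene, were given for 64 of the 89 members and 27025 genes in all, and both strands were searched for exact matches, with a gene counted once however many of its starts hold the motif. The ETS family motif CCGGAAGT was found in 12 of the 64 members (18.8%) and in 4.31% of all genes, the YY1 motif AAGATGGC in 6 (9.38%) and 3.19%, and the GC box GGGCGG in 39 (60.9%) and 38.2%. The E-box CACGTG, which MYC and MAX bind, was found in 6 members (9.38%) and in 8.09% of all genes, a share near the background. The TATA box letters TATAAA were found in 8 members (12.5%) and 15.7%, and CCAAT in 19 (29.7%) and 41.1%. A C followed by 4 pyrimidines stood exactly at the annotated start in 14 members (21.9%) and in 3.01% of all genes. A match is a description of letters, and no difference between these shares was tested. Promoters are shown from 200 bases before to 25 after the start for Rpl22l1, higher in Aldafermin+MYC and FGF19+MYC than in sgTrp53+MYC, for Rpl35, among the highest in sgTrp53+MYC, for Rps27, among the lowest, and for the third annotated start of Rps19, which holds the E-box. Capitals mark TATAAA on both strands, overlapping, in Rpl22l1 (chr3:28805308-28805532, + strand), CCGGAAGT on the reverse strand in Rpl35 (chr2:39005107-39005331, - strand), AAGATGGC in Rps27 (chr3:90213624-90213848, - strand) and CACGTG in Rps19 (chr7:24884713-24884937, + strand).
Rpl22l1: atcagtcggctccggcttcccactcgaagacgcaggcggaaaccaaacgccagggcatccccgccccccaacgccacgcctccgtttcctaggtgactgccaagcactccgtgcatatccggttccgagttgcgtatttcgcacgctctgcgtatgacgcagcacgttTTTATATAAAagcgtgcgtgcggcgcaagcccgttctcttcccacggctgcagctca
Rpl35: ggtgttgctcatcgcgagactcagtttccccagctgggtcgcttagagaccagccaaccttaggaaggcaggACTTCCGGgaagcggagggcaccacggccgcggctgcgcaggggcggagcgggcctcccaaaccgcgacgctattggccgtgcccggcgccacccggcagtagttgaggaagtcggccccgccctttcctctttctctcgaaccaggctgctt
Rps27: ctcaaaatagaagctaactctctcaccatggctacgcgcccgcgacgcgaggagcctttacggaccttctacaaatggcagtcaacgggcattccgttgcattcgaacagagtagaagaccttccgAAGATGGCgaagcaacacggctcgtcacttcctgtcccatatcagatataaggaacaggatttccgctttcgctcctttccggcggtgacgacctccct
Rps19: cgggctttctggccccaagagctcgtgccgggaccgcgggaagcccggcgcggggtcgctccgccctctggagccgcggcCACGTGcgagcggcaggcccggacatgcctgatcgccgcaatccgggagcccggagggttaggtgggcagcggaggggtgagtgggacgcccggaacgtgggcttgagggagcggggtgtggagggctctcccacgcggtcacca
Of the 6 members with CACGTG (Rpl13a, Rpl14, Rpl19, Rpl23, Rpl34 and Rps19), the log2 fold changes in Aldafermin+MYC and FGF19+MYC against Liver were 1.77, 2.03, 1.48, 1.33, 1.71 and 1.99, on both sides of the members' median of 1.64.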

How the data were processed

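The authors made stranded mRNA libraries, aligned reads with HISAT2 to the mouse genome (mm39, bcl2fastq 2.20.0.422 for base calls, per the labels) with gene counts from htseq-count on RefSeq genes. The deposited values are raw counts in 2 tables, one of them for sgTrp53+MYC only. All columns were used (0 left out) and 5 summary lines were removed. The main test was edgeR 4.0.16 in R 4.3.3 (TMM, quasi-likelihood test, at least 1 CPM in at least 5 of 20 libraries, Benjamini-Hochberg over 14333 genes) in 1 model of the 4 groups. DESeq2 1.42.0 and other settings served as alternatives, and the code was tested on simulated data. Printed CPM values use TMM factors, whereas the filter on low counts used library totals. Standard errors are the fold change over the square root of F. Paralog ratios used a pseudocount of 2 and exact permutation tests.

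Members, gene lists and comparisons were chosen with earlier results of these data known. Named were the 7 paralogs with their parents, Rplp0 to Rplp2, Rpl5, Rpl11, Rpl23, Rps6, Rps19, Rpsa and Rps3, and in each comparison the 3 highest and 3 lowest members past the threshold. Members that failed a threshold, parents of the annotated pseudogenes and holders of the E-box were named after their values were seen. Gene coordinates and coding sequences are from GENCODE M39 on GRCm39, promoters from RefSeq on GRCm38.p6. Coding length replaced exon length in the correction for length, because annotated 3′ ends of many members were very long. The title number of a sample is its replicate number. Same-numbered samples are different mice, and 6 of 30 pairs had correlated deviations over 0.1, so they were not treated as pairs. No library was a copy of another (chi-square over degrees of freedom at least 15.3). P-values measure the spread between mice. The values of 1 related gene outside the symbol rule are not reported here.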

Additional observations from a re-analysis of the deposited data

Results flagged for a closer look

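A library far from the 4 others of its group was found for 53 of 132 values checked, the share of counts on members and the CPM of 32 named members in each group. Chance flags about 1 in 20 groups where values are independent, which these are not, since the members of a library moved together, so that this rate cannot be set against the count. FGF19+MYC replicate 1 accounted for 31 of them, all high. Its share was 17.8% against a median of 6.86% in the others of the group.
In CPM it stood out for Rpl3 (3800), Rpl7 (2190), Rpl10 (1870), Rpl22l1 (404), Rpl22 (920), Rpl39 (711), Rps27l (401), Rps27 (1250), Rps4x (1680), Rplp0 (6340), Rplp1 (4750), Rplp2 (1400), Rpl5 (4370), Rpl11 (1970) and Rpl23 (910). The same held for Rps6 (2090), Rps19 (2710), Rpsa (5900), Rps3 (4450), Rpl6l (127), Rps2 (2300), Rps3a2 (10.4), Rpl32l (15), Rps12l1 (13.3), Rpl37a (1290), Rps12 (3960), Rpl28 (1290), Rps28 (595), Rpl12 (2890) and Rpl35 (1620).
Aldafermin+MYC replicate 5 was high in CPM for Rpl22l1 (345), Rpl22 (591), Rpl39 (475), Rps27l (325), Rps27 (553), Rpl5 (2700), Rps19 (1590), Rps3 (2680), Rpl32l (6.48), Rps12l1 (31), Rpl37a (857), Rps12 (1890), Rpl12 (1820) and Rpl35 (1080).
In sgTrp53+MYC, replicate 1 was high in CPM for Rpl22l1 (117), Rps27l (454), Rpl5 (3950), Rps3 (2880), Rpl32l (2.82) and Rpl35 (1930), and replicate 5 for Rps4l (200, against a median of 7.9 in the others).
Among livers, replicate 4 was high for Rpl23 (284 CPM). What sets these libraries apart was not tested.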

How the results depend on the processing

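Against Liver, the counts of higher members stayed within 1.5 times under every alternative (83 to 85 and 64 to 84), with 0 lower in each. Leaving out single libraries gave 83 to 84 higher in Aldafermin+MYC and FGF19+MYC and 64 to 79 in sgTrp53+MYC, with 0 lower. Library totals in place of TMM moved the median of all genes to 0.94 and 0.95 and that of the members to 2.46 and 2.38, 1.52 and 1.43 above it. With library totals, 8763 and 8534 of all 14333 genes were higher against Liver. Between tumor types, 2 members were higher without a filter on low counts, 1 was lower with only the compared groups in the model, 9 were lower with the offset on length and GC content and 6 were lower without the 3 high libraries, an alternative chosen after seeing the data. Over all genes, in the same order, 1260 of 29921 were higher, and 1487 of 13888, 2155 of 14333 and 2627 of 14148 were lower. Leaving out single libraries gave 2 to 7 higher and 0 to 4 lower, and between Aldafermin+MYC and FGF19+MYC 0 to 0 in both directions. The count of paralog ratio tests past the threshold was 6, or 4 to 7 without single libraries. The ratio of Rpl22l1 to Rpl22 ranged over these from 2.03 to 2.14 between tumor types, 1.19 to 1.38 and -0.89 to -0.71 against Liver, and -0.13 to 0.002 between Aldafermin+MYC and FGF19+MYC. Mean shares ranged from 7.48% to 8.91%, 6.82% to 9.65%, 7.46% to 9.64% and 1.47% to 1.66% in Aldafermin+MYC, FGF19+MYC, sgTrp53+MYC and Liver. The replicate number as a block gave 84 and 76 members higher against Liver and 4 higher and 2 lower between tumor types. The cause of these changes was not tested. DESeq2 gave no adjusted p for Rps12l1 in the comparisons where it was called.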
